A study of Homo sapiens with 6 samples.

Results

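The 33 genes described here make cholesterol and fatty acids or control their synthesis through the sterol regulatory element binding proteins (SREBPs). They were chosen by name for these roles, though with earlier results of these data known. All 33 were found among the 28491 genes of the deposited read table. 7 encode enzymes of the mevalonate arm (ACAT2, HMGCS1, MVK, PMVK, MVD, IDI1 and FDPS) and 11 encode enzymes of the squalene and sterol arm (FDFT1, SQLE, LSS, CYP51A1, TM7SF2, MSMO1, NSDHL, HSD17B7, EBP, SC5D and DHCR7). Another 7 make up the SREBP control group (SREBF1, SREBF2, SCAP, INSIG1, INSIG2, MBTPS1 and MBTPS2), STARD4 encodes a sterol carrier, and 7 belong to the fatty acid arm (ACLY, ACACA, FASN, SCD, FADS1, FADS2 and ELOVL6). Between 411 and 163213 reads fell on a member in a library, and all 33 passed edgeR's filter on low counts.

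The genes were measured in HCT116, a human colorectal carcinoma cell line, to ask what raising the RNA-binding protein RBM47 does to the transcriptome. 3 libraries came from cells that received a control plasmid (NC) and 3 from cells that received a plasmid carrying an RBM47 transcript (RBM47-OE), both by lipofection, and cells were harvested 48 h later. Poly(A) RNA was read in pairs on an Illumina instrument, and 26792409 to 35477983 reads per library were counted on genes. The methods and the sample labels name different plasmid backbones, culture media and stranded library kits, and neither says that the replicates were separate cultures, so p-values measure the spread between these libraries, which may be technical. RBM47 itself had an FPKM (fragments on the gene per length and per mapped fragments, the level as deposited) of 1.91, 2.33 and 1.94 with the control plasmid and 131.3, 130.41 and 127.04 with the RBM47 plasmid, where reads from the plasmid and from the cells' own gene are counted together. Of 8 colorectal epithelial markers, 7 had a mean NC level between 13.1 (CDH1) and 972 FPKM (KRT19), and LGALS4 had at most 4 reads in a library. Of the stromal, endothelial and blood markers in the table, COL1A1 reached 1.72 FPKM and no other exceeded 0.26 FPKM in any library.

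Cholesterol is built from acetyl-CoA. The mevalonate arm joins acetyl-CoA units into mevalonate and then into isoprenoid building blocks up to farnesyl diphosphate, and the squalene and sterol arm joins farnesyl diphosphate into squalene, closes it to lanosterol and trims lanosterol to cholesterol. The genes of both arms are textbook targets of SREBP-2, the product of SREBF2, while SREBP-1, the product of SREBF1, acts more on fatty acid genes. Both proteins are made as membrane-bound precursors that SCAP escorts out of the endoplasmic reticulum. When sterols are plentiful, INSIG1 and INSIG2 hold SCAP back. When sterols run low, the precursors reach the Golgi, the proteases encoded by MBTPS1 and MBTPS2 cut them, and the released part binds sterol regulatory elements in promoters, usually with the factors NF-Y and Sp1.

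Promoters of 29 of the 33 genes were found in a RefSeq table of GRCh38.p14 that holds 250 bases before and 50 bases after each start, in 39 entries because 8 genes have several starts. ACAT2, FDFT1, SQLE and FASN had no entry. Both strands were searched for 5 motifs. The core sterol regulatory element TCACCCCAC was found in 1 of the 39 windows (2.56%), that of SREBF2, where it began 133 bases before the start, and in 0.43% of all 35116 windows of the table. The relaxed form TCACNCCAC, which includes the core, was found in the same SREBF2 window alone among the members, and in 1.13% of all windows. CCAAT, the letters NF-Y binds, occurred in 24 of the 39 windows (61.5%) and in 34.6% of all windows. GGGCGG, the Sp1 box, occurred in 33 of the 39 windows (84.6%), in 44.95% of all windows and in 65.9% of the windows of tested genes. The E-box CACGTG occurred in 5 of the 39 windows (12.8%), which belong to 4 of the 29 genes (13.8%). It occurred in 7.26% of all windows and in 9.23% of the windows of tested genes. These are letter matches within 300 bases and not measured binding sites, and neighbouring starts of a gene share letters. The windows of 4 members are printed 5′ to 3′ on the gene's strand, with TCACNCCAC and CCAAT on either strand in capitals: SREBF2 (chr22:41832855-41833154) for its sterol regulatory element, the sister genes INSIG1 (chr7:155297628-155297927) and INSIG2 (chr2:118088300-118088599, 1 of 2 starts), of which INSIG2 was called higher and INSIG1 was not, and MSMO1 (chr4:165327419-165327718), which holds 4 CCAAT boxes.
SREBF2: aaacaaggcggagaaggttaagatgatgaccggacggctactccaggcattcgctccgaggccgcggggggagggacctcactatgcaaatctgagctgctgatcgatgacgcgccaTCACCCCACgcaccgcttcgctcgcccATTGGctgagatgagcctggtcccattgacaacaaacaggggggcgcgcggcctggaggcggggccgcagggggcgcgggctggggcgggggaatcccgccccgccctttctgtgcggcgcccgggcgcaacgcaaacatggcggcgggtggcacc
INSIG1: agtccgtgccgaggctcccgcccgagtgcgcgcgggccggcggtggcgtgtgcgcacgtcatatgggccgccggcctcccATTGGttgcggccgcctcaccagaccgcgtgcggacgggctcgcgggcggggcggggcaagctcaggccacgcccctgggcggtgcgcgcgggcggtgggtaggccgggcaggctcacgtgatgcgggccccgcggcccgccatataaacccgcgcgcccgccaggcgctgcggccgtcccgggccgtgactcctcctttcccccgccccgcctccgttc
INSIG2: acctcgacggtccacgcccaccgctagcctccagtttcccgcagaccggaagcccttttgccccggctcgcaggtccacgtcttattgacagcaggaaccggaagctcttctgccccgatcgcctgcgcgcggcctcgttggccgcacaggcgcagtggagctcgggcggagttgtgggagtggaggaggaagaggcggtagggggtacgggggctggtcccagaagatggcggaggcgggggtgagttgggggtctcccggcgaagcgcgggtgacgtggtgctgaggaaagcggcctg
MSMO1: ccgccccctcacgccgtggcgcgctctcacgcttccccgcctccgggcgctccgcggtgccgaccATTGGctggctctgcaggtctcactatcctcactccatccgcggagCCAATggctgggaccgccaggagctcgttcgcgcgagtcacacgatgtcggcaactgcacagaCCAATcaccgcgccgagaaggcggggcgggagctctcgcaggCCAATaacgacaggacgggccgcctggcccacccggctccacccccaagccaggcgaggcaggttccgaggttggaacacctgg
The INSIG1 window holds 1 CCAAT box on the opposite strand, 6 GGGCGG boxes and 1 CACGTG, and the INSIG2 window holds no CCAAT and 1 GGGCGG box. The MSMO1 boxes begin 185, 139, 76 and 34 bases before the start.

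The level of the members differed widely, which the plot of FPKM by library shows, and fatty acid genes stood highest. SCD, the desaturase that makes oleate, had 716.22, 740.26 and 803.44 FPKM in the NC libraries and 834.81, 811.24 and 807.62 FPKM in the RBM47-OE libraries, always in the order of replicates 1, 2 and 3. FASN, the fatty acid synthase, followed at 282.97, 286.58 and 303.22 FPKM in NC and 299.61, 264.91 and 243.66 FPKM in RBM47-OE. Below these genes stood ACLY at 108 ± 1.27 (mean ± SD, n = 3), FDFT1 at 107 ± 1.81, FDPS at 98.0 ± 0.901 and INSIG1 at 88.8 ± 3.40 FPKM in NC, of which ACLY and FDFT1 did not differ beyond their spread. The lowest members were FADS2 at 1.58 ± 0.105 and the protease gene MBTPS2 at 2.29 ± 0.139 FPKM in NC. Within the SREBP control group the order in NC was INSIG1, SREBF2 (62.4 ± 2.48), SREBF1 (30.5 ± 1.36), MBTPS1 (13.1 ± 0.274), SCAP (11.5 ± 0.463), INSIG2 (10.4 ± 0.447) and MBTPS2, all in FPKM. The median member had an NC level of 34.2 FPKM.

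**Figure D1:**
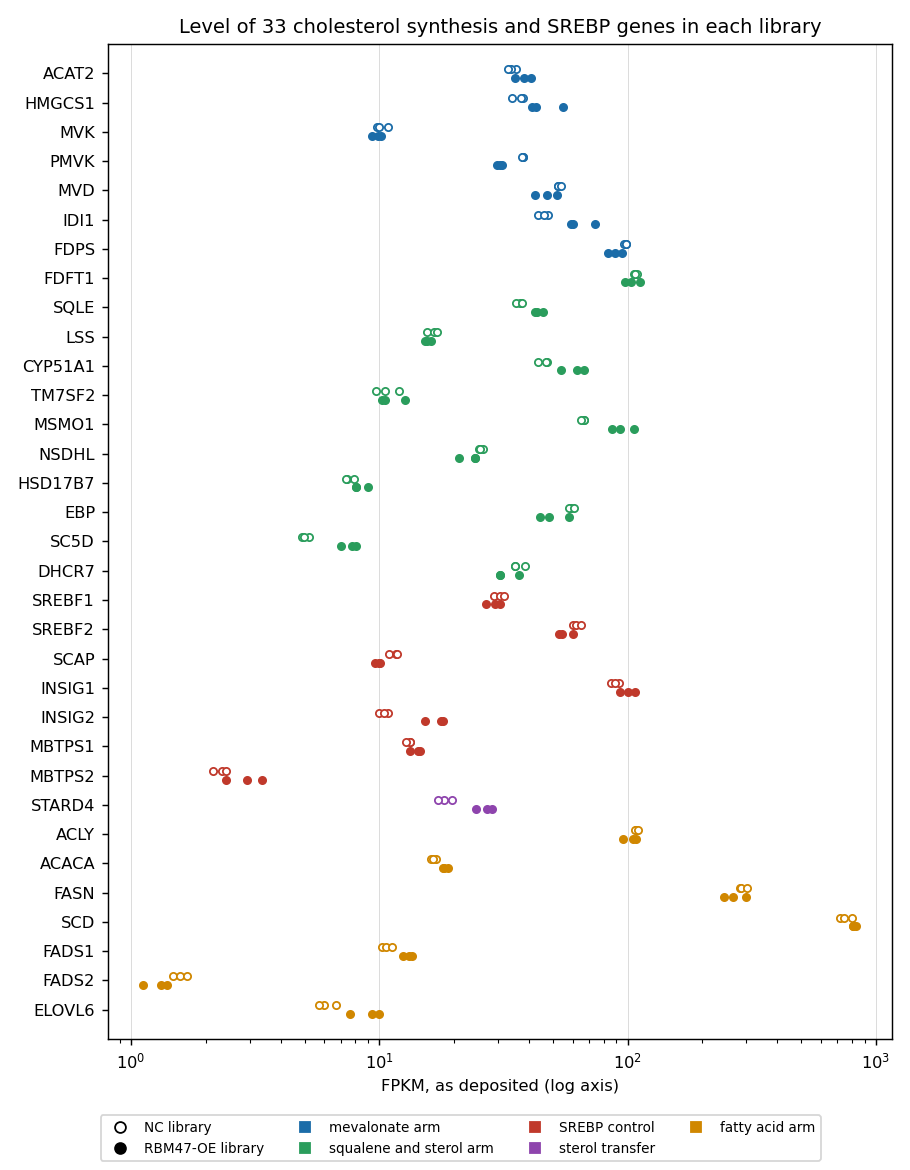
FPKM (as deposited, log axis) of the 33 genes in each of the 6 libraries, open points for NC and filled points for RBM47-OE, coloured by role. SCD lies between 716.22 and 834.81 FPKM and FADS2 between 1.12 and 1.68 FPKM, and in INSIG2, SC5D and STARD4 all filled points lie to the right of the open ones.

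RBM47 overexpression went with changes in both directions across these genes rather than with a common shift. By edgeR's quasi-likelihood test over all 16260 tested genes (Benjamini-Hochberg adjusted p under 0.05, here "called"), 11 of the 33 members were higher (HMGCS1, IDI1, SQLE, CYP51A1, MSMO1, SC5D, INSIG2, MBTPS2, STARD4, FADS1 and ELOVL6) and 9 were lower (PMVK, MVD, FDPS, NSDHL, EBP, DHCR7, SREBF2, SCAP and FADS2). The remaining 13 were not called. Of all tested genes, 19.1% were called higher and 16.9% lower, against 33.3% and 27.3% of the members. The members had at least 411 reads in every library, while the filter's minimum count was 10. Shares among tested genes of similar read number were not computed, so the difference in shares is not tied to the pathway. With the trend of all genes with the GC content of their exons removed (the GC offset), 15 of these 20 calls ended: 5 members were higher and none lower, while 5.97% of all tested genes were called higher and 8.57% lower. Calls named by role are those without the offset, with the value under the offset beside them. The median log2 fold change of the members was 0.027, with 17 above 0 and 16 below, and that of all tested genes was 4.0e-05. The study's own thresholds (unadjusted p under 0.01 and a fold change over 1.5) were set on DESeq2 results and are applied here to the edgeR fit. At them INSIG2 alone was higher and no member was lower, while 1.51% and 0.873% of all tested genes passed in those directions. These shares (245 and 142 genes) are not the study's own gene counts. In bulk RNA, a change in the level per cell and a change in the share of cells with that level cannot be told apart.

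Counts scaled to a common library size (CPM, with edgeR's TMM factors) show how cleanly the groups parted. In 11 members every RBM47-OE library lay above every NC library, in 10 members below, and in 12 the groups overlapped. The same parting held above for 23.2% and below for 23.4% of all tested genes, which include genes with far fewer reads than the members. The 11 members called higher had a median log2 difference from the NC mean of 0.28, 0.34 and 0.53 in RBM47-OE replicates 1, 2 and 3, and each of the 11 was above the NC mean in each of these libraries. The 9 called lower had medians of -0.092, -0.40 and -0.30 and each was below the NC mean in each library. Replicate 1 thus lay nearest to NC in both sets. Both sets were picked by the call on these same libraries, so their side of the NC mean largely follows from that choice. The members varied more among RBM47-OE than among NC libraries, with a median SD of log2 CPM of 0.12 against 0.061, and 29 of 33 were more variable in RBM47-OE. Over all tested genes the same medians were 0.15 and 0.088. Leaving out RBM47-OE replicate 1 gave 11 higher and 15 lower, replicate 2 gave 10 and 2, and replicate 3 gave 7 and 7. Leaving out NC replicate 1, 2 or 3 gave 8 and 5, 7 and 4, and 9 and 3. The number of all tested genes called moved as well, from 3100 higher and 2740 lower with every library to 3864 and 3508, 2332 and 1953, and 2419 and 2225 when RBM47-OE replicate 1, 2 or 3 was left out, and to 2480 and 2040, 2090 and 1675, and 2338 and 1916 when NC replicate 1, 2 or 3 was. INSIG2 missed the study's thresholds without RBM47-OE replicate 3.

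**Figure D2:**
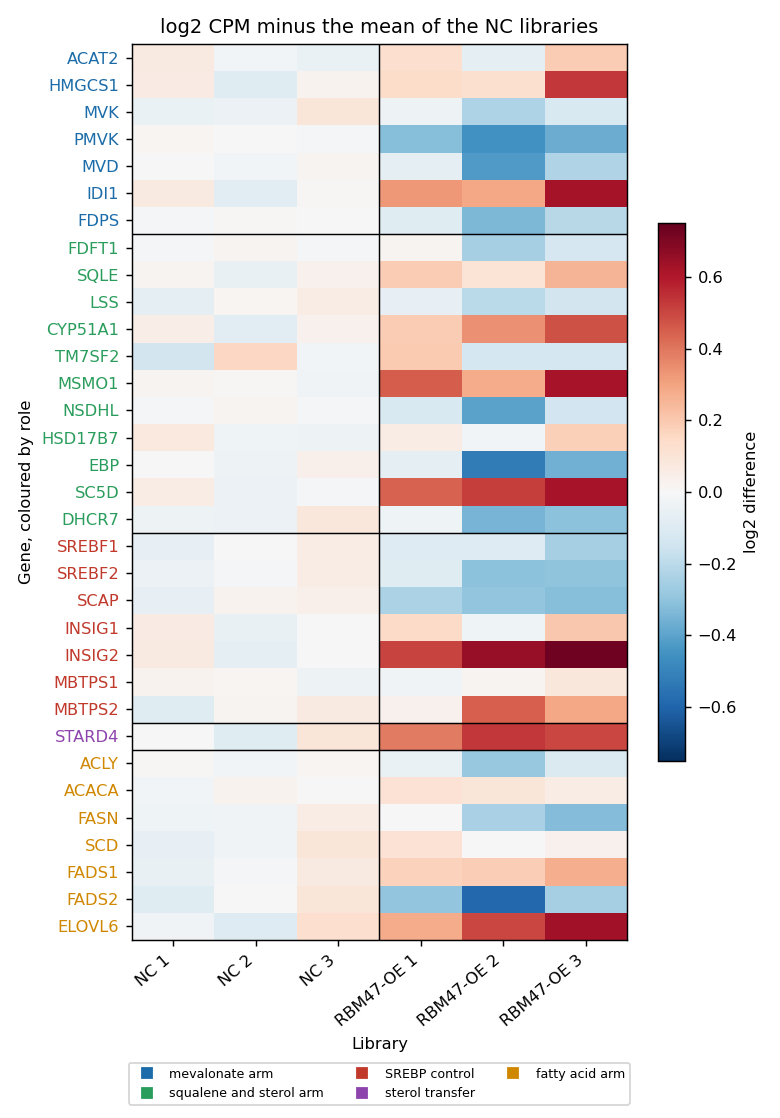
Log2 CPM of each gene in each library minus its mean over the NC libraries, genes coloured and boxed by role. Red is above and blue below the NC mean. Rows of both colours stand in every multi-gene role, from -0.59 (FADS2 in RBM47-OE replicate 2) to 0.73 (INSIG2 in RBM47-OE replicate 3).

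In the mevalonate arm 2 of 7 genes were higher and 3 lower, with calls of both signs along the pathway. HMGCS1, on chr5:43287470-43313512 of GRCh38 (gene spans here and elsewhere from GENCODE 44), encodes the cytosolic synthase that makes HMG-CoA. Its CPM was 292, 264 and 286 in NC and 309, 304 and 404 in RBM47-OE, a log2 fold change of 0.27 ± 0.088 (SE, edgeR adjusted p = 0.017). The groups did not overlap, and RBM47-OE replicate 3 stood far above the other two. IDI1 (chr10:1039152-1049119) encodes the isomerase that interconverts the isoprenoid building blocks. It rose by 1.34-fold, from 239, 216 and 229 to 286, 279 and 351 CPM, a log2 fold change of 0.42 ± 0.081 (SE, edgeR adjusted p = 0.00037), again without overlap.

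PMVK (chr1:154924740-154936719) and MVD (chr16:88651935-88663161) encode the kinase and the decarboxylase that turn phosphomevalonate into the isoprenoid unit IDI1 works on, and both were lower. PMVK was the member with the most negative log2 fold change, at 44.5, 44.1 and 43.5 CPM in NC and 35.2, 32.1 and 34.0 CPM in RBM47-OE, -0.38 ± 0.079 (SE, edgeR adjusted p = 0.00069). MVD measured 289.6, 287 and 295 in NC and 276, 216 and 248 in RBM47-OE CPM, -0.23 ± 0.078 (SE, edgeR adjusted p = 0.021). FDPS (chr1:155308748-155320666), which joins the units to farnesyl diphosphate, measured 421, 425 and 422 in NC and 397, 334 and 366 in RBM47-OE CPM, -0.21 ± 0.073 (SE, edgeR adjusted p = 0.027). In all 3 genes every RBM47-OE library lay below every NC library, and in MVD and FDPS replicate 1 was close to NC. ACAT2, the thiolase of the first step, had a log2 fold change of 0.086 ± 0.075 (SE) and the mevalonate kinase gene MVK one of -0.13 ± 0.075 (SE), and neither was called. With the GC offset IDI1 stayed called at a log2 fold change of 0.24, while PMVK (-0.19), MVD (-0.023), FDPS (-0.055) and HMGCS1 (-0.0025, a change of sign) were not called. Without the offset, the IDI1 and PMVK calls stood whichever library was left out. The HMGCS1 call was lost without NC replicate 2 (log2 fold change 0.23) and without RBM47-OE replicate 3 (0.13). The MVD and FDPS calls were lost without any 1 NC library (-0.22 to -0.24 for MVD, -0.21 in each case for FDPS) and without RBM47-OE replicate 2 (-0.15 and -0.15). MVK was called lower without RBM47-OE replicate 1 (-0.16).

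In the squalene and sterol arm 4 of 11 genes were higher and 3 lower. SQLE (chr8:124998497-125022283) encodes squalene epoxidase, which puts the oxygen on squalene. At 186, 176 and 187 CPM in NC and 209, 197 and 218 CPM in RBM47-OE, it changed by 0.18 ± 0.070 (SE, edgeR adjusted p = 0.041) on the log2 scale. CYP51A1 (chr7:92084987-92134803), the demethylase that acts first on lanosterol, had 194, 178 and 192 in NC and 214, 238 and 261 in RBM47-OE CPM, a log2 fold change of 0.34 ± 0.076 (SE, edgeR adjusted p = 0.0013). For SQLE and for CYP51A1, each RBM47-OE value exceeded each NC value.

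MSMO1 (chr4:165327667-165343164), NSDHL (chrX:152830967-152869729) and HSD17B7 encode the enzymes that strip the remaining methyl groups in turn, and they did not move together. MSMO1 was higher by 1.37-fold, with 221, 220.0 and 214 in NC and 299, 265 and 336 in RBM47-OE CPM (0.46 ± 0.078 (SE, edgeR adjusted p = 0.00014)). NSDHL was lower, with 58.9, 60.3 and 58.9 in NC and 54.8, 45.02 and 53.7 in RBM47-OE CPM (-0.22 ± 0.080 (SE, edgeR adjusted p = 0.037)). HSD17B7 was not called, at 0.074 ± 0.081 (SE), and a pseudogene copy of it, HSD17B7P2, had 39 to 74 reads in a library. Every MSMO1 value in RBM47-OE exceeded every NC value, and every NSDHL value lay below.

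The last steps alternated in sign as well. EBP (chrX:48521799-48528716), the isomerase that shifts the double bond of the sterol ring, was lower, with 122, 118 and 125 in NC and 115.5, 84.4 and 94.6 in RBM47-OE CPM (-0.31 ± 0.086 (SE, edgeR adjusted p = 0.0066)). SC5D (chr11:121292681-121313410), the desaturase after it, was higher by 1.44-fold, from 60.9, 56.7 and 58.1 to 79.5, 83.9 and 89.9 CPM (0.53 ± 0.074 (SE, edgeR adjusted p = 3.1e-05)). DHCR7 (chr11:71428193-71452868), a reductase that completes cholesterol, was lower, with 280.2, 279 and 306 in NC and 281, 226 and 233 in RBM47-OE CPM (-0.23 ± 0.080 (SE, edgeR adjusted p = 0.029)). EBP and SC5D showed no overlap between the groups, while RBM47-OE replicate 1 of DHCR7 lay within the NC range. SC5D was the least abundant enzyme of the sterol arms, at 5.02 ± 0.162 FPKM in NC and 7.61 ± 0.552 FPKM in RBM47-OE. The squalene synthase gene FDFT1 (-0.11 ± 0.076 (SE)), the lanosterol synthase gene LSS (-0.13 ± 0.071 (SE)) and the sterol reductase gene TM7SF2 (-0.020 ± 0.094 (SE)) were not called. TM7SF2 changed sign without NC replicate 2 (0.064), RBM47-OE replicate 2 (0.036) or RBM47-OE replicate 3 (0.034).

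With the GC offset SC5D stayed called (0.19), while MSMO1 (0.15), CYP51A1 (0.081), NSDHL (-0.14), EBP (-0.17), DHCR7 (-0.058) and SQLE (-0.025, a change of sign) were not called. Without the offset, MSMO1, SC5D and CYP51A1 were called whichever library was left out. SQLE lost its call without NC replicate 1 (log2 fold change 0.19), 2 (0.16) or 3 (0.20) and without RBM47-OE replicate 3 (0.15). NSDHL and DHCR7 lost theirs without any 1 NC library (-0.22 to -0.20 and -0.25 to -0.18) and without RBM47-OE replicate 2 (-0.13 and -0.17). DHCR7 also lost it without RBM47-OE replicate 3 (-0.19), and EBP lost it without RBM47-OE replicate 2 (-0.21). FDFT1 (-0.18) and LSS (-0.16) were called lower without RBM47-OE replicate 1. As a description with no test, the summed FPKM of all 18 enzymes of both sterol arms was 733.05, 725.97 and 737.64 in NC. In RBM47-OE the sum was 790.28, 728.49 and 815.15, with replicate 2 inside the NC range. The ratio of means was 1.06 on the FPKM scale, which carries no TMM factors. Genes at large also sat above 0 on that scale, with a middle value of 0.057 over 17587 genes fitted on log2(FPKM + 0.1). With TMM factors the 18 enzymes had a median log2 fold change of -0.067, 8 above 0 and 10 below. Whether the sum rose beyond the shift of the FPKM scale was not tested.

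In the SREBP control group the call with the largest fold change fell on INSIG2, and 2 of 7 genes were higher and 2 lower. INSIG2 (chr2:118088452-118110997) encodes a protein of the endoplasmic reticulum that holds SCAP back when sterols are plentiful. Its CPM was 50.01, 45.5 and 47.9 in NC and 67.9, 75.1 and 79.2 in RBM47-OE, an increase of 1.55-fold (log2 fold change 0.63 ± 0.077 (SE, edgeR adjusted p = 1.2e-05)), and on the FPKM scale it went from 10.4 ± 0.447 to 16.98 ± 1.55 (SD, n = 3). No RBM47-OE value overlapped an NC value. Its sister INSIG1, more abundant than INSIG2 and a classic SREBP target, had 393, 361 and 375 in NC and 415, 367 and 432 in RBM47-OE CPM and a log2 fold change of 0.11 ± 0.074 (SE), which was not called (edgeR adjusted p = 0.29). The INSIG1 groups overlapped through RBM47-OE replicate 2.

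SREBF2 (chr22:41833105-41907306), the gene of the precursor of SREBP-2, was lower, with 530.5, 542 and 569.8 in NC and 513, 442 and 444 in RBM47-OE CPM (-0.23 ± 0.075 (SE, edgeR adjusted p = 0.018)). SCAP (chr3:47413681-47477126), the escort of both SREBPs, was lower as well, with 80.1, 85.1 and 85.7 in NC and 70.97, 68.1 and 66.9 in RBM47-OE CPM (-0.28 ± 0.071 (SE, edgeR adjusted p = 0.0029)). In both genes every RBM47-OE library lay below every NC library. MBTPS2 (chrX:21839617-21885423), the membrane protease of the second cut, was higher, with 22.3, 24.1 and 25.0 in NC and 24.3, 32.4 and 29.1 in RBM47-OE CPM (0.26 ± 0.099 (SE, edgeR adjusted p = 0.040)), and RBM47-OE replicate 1 lay within the NC range. SREBF1 (-0.15 ± 0.071 (SE), groups not overlapping) and MBTPS1, the protease of the first cut (0.027 ± 0.069 (SE)), were not called. With the GC offset INSIG2 stayed called (0.29), while SCAP (-0.090), SREBF2 (-0.056) and MBTPS2 (-0.054, a change of sign) were not called. Without the offset, the INSIG2 and SCAP calls stood whichever library was left out. MBTPS2 was not called without NC replicate 1 (0.22), 2 (0.27) or 3 (0.30) or without RBM47-OE replicate 2 (0.16) or 3 (0.25). SREBF2 was not called without NC replicate 2 (-0.24) or 3 (-0.20) or RBM47-OE replicate 2 (-0.19) or 3 (-0.20). SREBF1 was called lower without RBM47-OE replicate 1 (-0.17), and MBTPS1 changed sign without RBM47-OE replicate 3 (-0.0023).

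STARD4 (chr5:111496033-111512590), a soluble carrier that moves cholesterol between membranes, was higher by 1.39-fold. Its CPM was 120.3, 113 and 129 in NC and 158, 174 and 171 in RBM47-OE, a log2 fold change of 0.47 ± 0.072 (SE, edgeR adjusted p = 5.4e-05). The groups did not overlap, and the call stood whichever library was left out but not with the GC offset (0.089).

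In the fatty acid arm 2 of 7 genes were higher and 1 lower. The genes that feed and build palmitate, and SCD, showed the smaller changes. ACLY, which makes cytosolic acetyl-CoA, had a log2 fold change of -0.14 ± 0.074 (SE), the acetyl-CoA carboxylase gene ACACA one of 0.084 ± 0.068 (SE), FASN one of -0.18 ± 0.084 (SE) and SCD one of 0.048 ± 0.079 (SE), and none was called. The ACLY and ACACA groups did not overlap in CPM, ACLY lower and ACACA higher. ELOVL6 (chr4:110045846-110199199), which lengthens palmitate, was higher by 1.39-fold, with 50.5, 48.2 and 56.1 in NC and 62.4, 72.9 and 79.9 in RBM47-OE CPM (0.47 ± 0.086 (SE, edgeR adjusted p = 0.00022)), without overlap, and it was called whichever library was left out and with the GC offset (0.25).

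FADS1 and FADS2 encode the desaturases that act in turn on polyunsaturated fatty acids, and they moved in opposite directions. FADS1 (chr11:61799627-61829318, minus strand) had 122, 126 and 133 in NC and 144, 145 and 154 in RBM47-OE CPM (0.21 ± 0.070 (SE, edgeR adjusted p = 0.020)). FADS2 (chr11:61792980-61867354, plus strand) had 18.1, 19.3 and 20.6 in NC and 15.7, 12.8 and 16.2 in RBM47-OE CPM (-0.37 ± 0.11 (SE, edgeR adjusted p = 0.0076)). Neither gene's groups overlapped. Exons of the genes share 490 bases on opposite strands in GENCODE 44, and since the sources used here do not say whether strand was used in counting, reads there cannot be assigned. With the GC offset FADS1 stayed called (0.34) and FADS2 (-0.19) was not called. FADS1 lost its call without NC replicate 1 (0.18) or 2 (0.21) or RBM47-OE replicate 3 (0.18), and FADS2 lost its call without NC replicate 3 (-0.33) or RBM47-OE replicate 2 (-0.27). Without RBM47-OE replicate 1, ACLY (-0.19) and FASN (-0.28) were called lower.

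Within-library ratios of FPKM compare paired genes directly, for 3 pairs chosen after their values were seen. The separation of these ratios and its p-values therefore add nothing to the calls on single genes. The ratios carry no GC offset. Exonic GC content was 37.5% for INSIG2 and 44.6% for INSIG1, 53.1% for FADS1 and 57.5% for FADS2, and 61.5% for SREBF1 and 57.0% for SREBF2. INSIG2 to INSIG1 was 0.118, 0.116 and 0.118 in NC and 0.151, 0.189 and 0.169 in RBM47-OE. All RBM47-OE ratios exceeded all NC ratios, with an exact two-sided permutation p of 0.1 (0.15 adjusted over the 3 ratios by Benjamini-Hochberg), the smallest that 3 against 3 libraries allow. FADS1 to FADS2 was 6.97, 6.75 and 6.68 in NC and 9.42, 11.7 and 9.76 in RBM47-OE, for the same exact permutation p of 0.1 (0.15 adjusted). SREBF1 to SREBF2 was 0.483, 0.495 and 0.488 in NC and 0.488, 0.566 and 0.507 in RBM47-OE, overlapping, with an exact permutation p of 0.3 (0.3 adjusted). No design of this size can pass a threshold of 0.05 by this test.

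The direction of a member went with the base composition of its exons. Across the 33 genes, Spearman's rho between exonic GC content and the log2 fold change was -0.86, as a description with no p, since genes share libraries. Against the NC mean rho was -0.74, -0.81 and -0.88 in RBM47-OE replicates 1, 2 and 3. It was -0.63 over the 16228 tested genes with a GC content. All 15 members with a GC content under the median of tested genes (48.98%) had a positive log2 fold change, and 10 were called higher and none lower. 37% of all tested genes under that median were called higher. Of the 18 members at or over the median, 9 were called lower and 1 higher, FADS1, and 30.2% of all tested genes at or over the median were called lower. The lowest GC contents belonged to STARD4 (34.6%), SC5D (37.3%) and INSIG2 (37.5%), and among the called lower genes NSDHL had 50.6% and MVD 63.0%. The opposing neighbours of the pathway differed in the same way, with 38.8% for MSMO1 and 50.6% for NSDHL, 37.3% for SC5D and 53.9% for EBP, and 43.1% for IDI1 and 59.0% for PMVK.

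**Figure D3:**
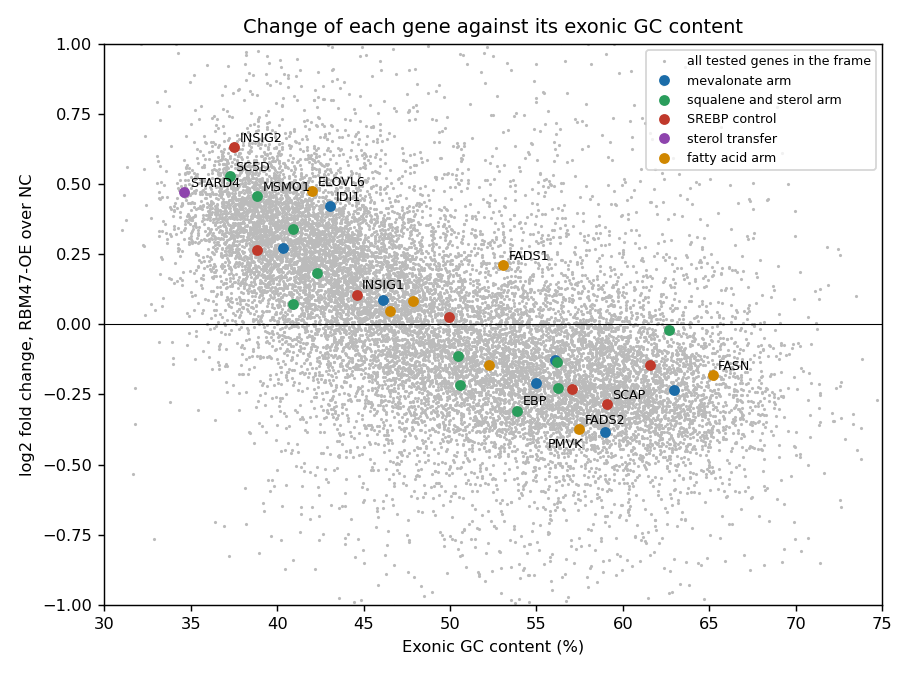
Log2 fold change (RBM47-OE over NC) against exonic GC content for the tested genes (grey, 16077 of 16228 within the frame) and the 33 members (coloured by role). Members under 48.98% GC lie above 0, and FADS1 stands at 53.1% with a log2 fold change of 0.21, above its neighbours.

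The GC offset removed, in each library, the trend of all genes with GC content. Any change tied to GC content is removed this way, technical or not. The 5 members called with it were INSIG2, FADS1, ELOVL6, IDI1 and SC5D, all higher and all called higher without it. FADS1 was the 1 called member whose log2 fold change grew in size. Of the other 6 that had been higher, MSMO1, STARD4 and CYP51A1 kept their sign, and HMGCS1, SQLE and MBTPS2 changed sign. The 9 lower members all stayed below 0, from -0.19 (FADS2) and -0.19 (PMVK) to -0.023 (MVD), and none was called. The median of the members with the offset was -0.0025, and rho with GC content was -0.35. Leaving out 1 library with the offset in place left 2 to 6 members higher and 0 to 2 lower, with 2 higher without NC replicate 1 or 2, 3 without NC replicate 3 or RBM47-OE replicate 3, 4 when RBM47-OE replicate 1 was left out and 6 when RBM47-OE replicate 2 was. Lower calls appeared without RBM47-OE replicate 1 (2) and replicate 3 (1). Calls over all tested genes moved too, from 971 higher and 1393 lower with the offset and every library. They lay between 338 and 620 without NC replicate 2 and 1094 and 1587 without RBM47-OE replicate 1. INSIG2, IDI1, SC5D and ELOVL6 were called higher in each of the 17 alternatives that were set for single members, which do not include the offset with a library left out.

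**Figure D4:**
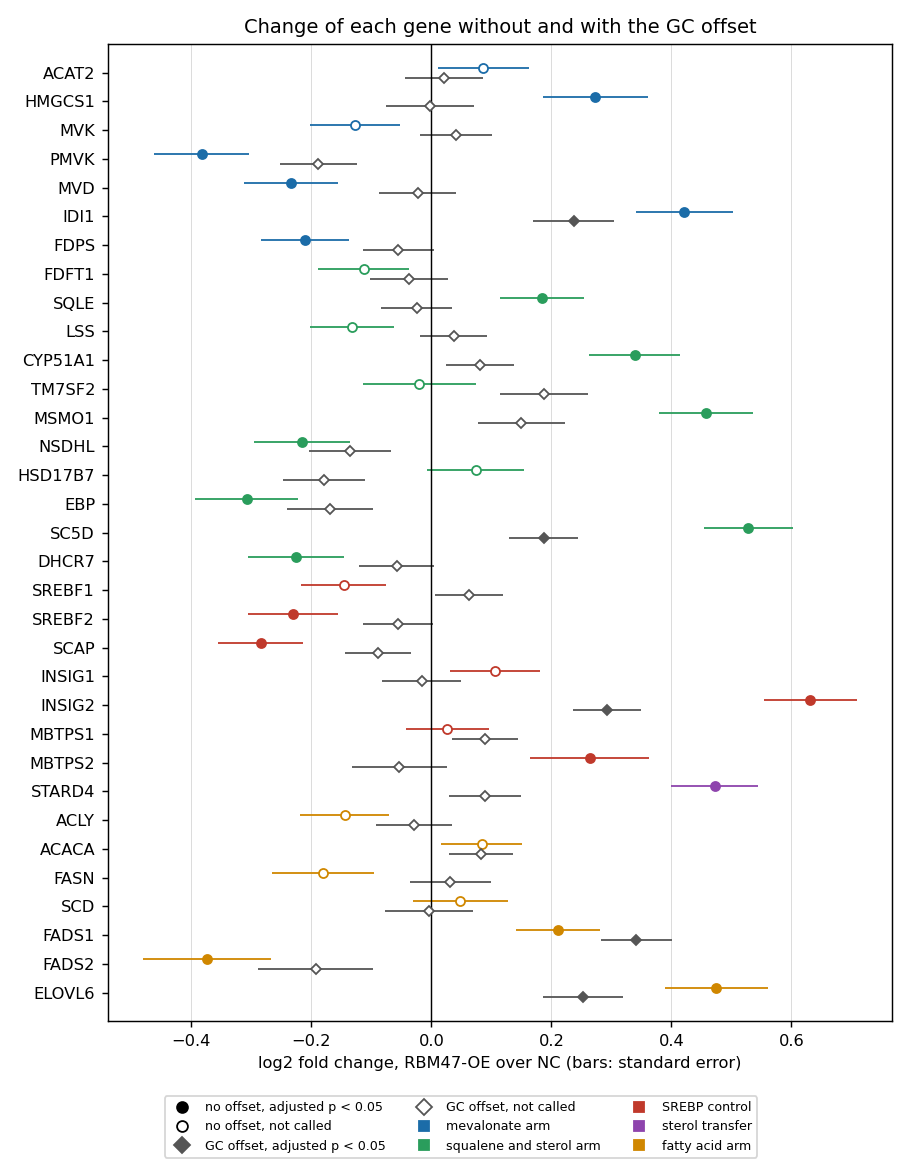
Log2 fold change (RBM47-OE over NC) with its standard error for each gene, circles coloured by role without the GC offset and grey diamonds with it, filled where the adjusted p was under 0.05. 20 circles are filled, 11 to the right and 9 to the left, and 5 diamonds are filled, all to the right, with INSIG2 moving from 0.63 to 0.29 and FADS1 from 0.21 to 0.34.

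Annotation sets a limit to some of these values. Exons of 18 of the 33 members overlap another gene in GENCODE 44, 15 of them on the opposite strand and 6 on the same strand. For HMGCS1 a lncRNA shares 2497 bases antisense and had 17 to 24 reads in a library, and for ACAT2 the abundant gene TCP1 shares 454 bases antisense and had 11567 to 14686 reads. CYP51A1 shares 2844 bases with a same-strand gene model of at most 3 reads, and EBP shares 644 bases with a same-strand model of 36 to 64 reads. FADS2, with 411 to 666 reads itself, shares 49 bases with FEN1 on the same strand, which had 3723 to 6464 reads, and TM7SF2 shares 18 bases with VPS51 on the same strand, which had 2853 to 4654 reads.

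Other genes of sterol, isoprenoid and fatty acid metabolism, 46 in all, held 17 called higher (37.0%) and 8 called lower (17.4%), against 19.1% and 16.9% of all tested genes, so that the share called lower was near that of all genes. Among 9 genes of the isoprenoid branches, which take farnesyl diphosphate to prenylated proteins, dolichol and ubiquinone, 4 were higher and 1 lower. GGPS1, the synthase of geranylgeranyl diphosphate, had 19.9, 20.2 and 19.7 in NC and 26.3, 29.2 and 28.3 in RBM47-OE CPM (0.49 ± 0.089 (SE, edgeR adjusted p = 0.00026)), and DHDDS, a subunit of the enzyme that makes dolichol, had 47.4, 49.8 and 48.4 in NC and 38.1, 37.8 and 36.1 in RBM47-OE CPM (-0.38 ± 0.077 (SE, edgeR adjusted p = 0.00059)). In neither gene did the groups overlap. Among 9 other sterol sensing and turnover proteins 2 were higher and 1 lower, none of them among the 3 largest changes in either direction.

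Among 12 genes of cholesterol uptake, storage and export, 2 were higher and 3 lower. ABCG1, a sterol exporter gene of low level, had 44, 99 and 59 reads in NC and 109, 111 and 84 reads in RBM47-OE (0.54 ± 0.21 (SE, edgeR adjusted p = 0.045)). Its call was lost without NC replicate 1 (0.38) or 3 (0.48) and without RBM47-OE replicate 1 (0.52), 2 (0.48) or 3 (0.60). NR1H3 encodes the liver X receptor alpha, which senses oxysterols, and had 18.5, 18.3 and 16.8 in NC and 14.7, 12.2 and 11.9 in RBM47-OE CPM (-0.47 ± 0.11 (SE, edgeR adjusted p = 0.0016)), lower without overlap. Among 16 other fatty acid and lipid genes 9 were higher and 3 lower. ACSL4, which activates polyunsaturated fatty acids, had 108, 92.5 and 106 in NC and 129.7, 149 and 161 in RBM47-OE CPM (0.52 ± 0.081 (SE, edgeR adjusted p = 6.1e-05)), higher without overlap. TECR, the last enzyme of each elongation round, had 152, 155 and 167 in NC and 143, 110.0 and 117 in RBM47-OE CPM (-0.36 ± 0.082 (SE, edgeR adjusted p = 0.0016)), lower without overlap. Over the 46 genes rho between GC content and log2 fold change was -0.74, and with the GC offset 5 of the 46 were higher and 6 lower, against 5.97% and 8.57% of all tested genes. GGPS1 (0.31) and ABCG1 (0.69) stayed called higher and DHDDS (-0.34), NR1H3 (-0.30) and TECR (-0.20) lower with the offset, while ACSL4 (0.17) was not called.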

How the data were processed

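HCT116 cells were harvested 48 h after transfection, and 6 poly(A) RNA libraries were made, 3 of NC and 3 of RBM47-OE cells. The authors trimmed the reads with FASTX-Toolkit, mapped them with HISAT2 on GRCh38, and deposited the uniquely mapped reads of each gene as counts, without normalization, with 1 column per library. The authors computed FPKM values too, which are deposited rounded. The counting tool, annotation release and strand setting are not given in the sources used here. Libraries held 26792409 to 35477983 counts on genes.

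Counts were tested with edgeR 4.0.16 in R 4.3.3 on all genes that passed filterByExpr (minimum count 10, minimum total count 15), with TMM factors, the quasi-likelihood test, condition as the only term and Benjamini-Hochberg adjustment over the 16260 genes tested. A standard error is the absolute log2 fold change over the root of the F statistic. Log2 CPM used a prior count of 2. Exonic GC content, spans and overlaps came from GENCODE 44 on GRCh38, matched by gene identifier for 28416 genes. The GC offset was a loess curve (span 0.3) over GC content, per library, of its log2 values relative to the 6-library mean. The fits were also run on simulated counts, with larger changes than the members showed. The outcome is not given here and is not used as support.

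Members, the 46 further genes and the markers were chosen with earlier results of these data known. Members that were called are given in every library, and of the further genes the 3 called with the largest change in each direction are named. COL1A2, DCN, PTPRC and HBB were looked up as markers too, and had no row under these symbols in the deposited read table. Alternatives were RLE factors, library totals, DESeq2 1.42.0, dropping the filter, a minimum of 10 counts per library, a block for the replicate number, the GC offset with and without that block, limma 3.58.1 on log2 FPKM with a pseudocount of 1 or 0.1 above a mean FPKM of 0.1, or with no minimum, and each library left out. The GC offset with each library left out was added after seeing the data.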

Additional observations from a re-analysis of the deposited data

How the results depend on the processing

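RLE factors, DESeq2, dropping the filter and a minimum of 10 counts per library left 10 or 11 members higher and 8 or 9 lower. Of the 46 further genes, 15 to 17 were higher and 7 or 8 lower. Over all genes fitted, these settings called 2935 to 3140 higher and 2480 to 2771 lower. Library totals gave 11 and 5 members, and 20 and 5 further genes. They moved the median of all tested genes to 0.062 on the log2 scale, and called 3693 of these genes higher and 1889 lower. limma on log2(FPKM + 1) and on log2(FPKM + 0.1) gave 10 and 2 members and 18 and 3 further genes. Without a filter, limma gave 9 and 2 members and 9 and 1 further genes. Over all genes fitted, these 3 limma fits called 2872, 2918 and 1416 higher and 1586, 1599 and 912 lower. The GC offset gave 5 and 0 members and 5 and 6 further genes. With the replicate number as a block as well, it gave 5 and 1 (EBP) and 4 and 6. Over all tested genes the GC offset called 971 higher and 1393 lower, and 1046 and 1465 with the block. Leaving out 1 library gave 7 to 11 members higher and 2 to 15 lower, and 9 to 18 and 5 to 7 further genes; with the GC offset the same ranges were 2 to 6 and 0 to 2, and 1 to 5 and 1 to 7. At the study's thresholds no member was lower in any alternative. 2 members were higher when scaled by library totals or in limma on log2(FPKM + 0.1), 0 with the GC offset, with or without the block or with a library left out, and 0 to 1 with a library left out. The median log2 fold change of the members was 0.089 with library totals and 0.091, 0.097 and 0.091 in the 3 limma fits, and lay between -0.027 and 0.054 in the other alternatives. The cause of these differences was not tested.

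11 members, of which HMGCS1, SQLE and MBTPS2 were called without the offset, changed sign with the GC offset, without and with the block: HMGCS1 (-0.0025 and -0.010), MVK (0.041 and 0.041), SQLE (-0.025 and -0.027), LSS (0.037 and 0.038), TM7SF2 (0.19 and 0.19), HSD17B7 (-0.18 and -0.18), SREBF1 (0.063 and 0.063), INSIG1 (-0.016 and -0.020), MBTPS2 (-0.054 and -0.053), FASN (0.032 and 0.031) and SCD (-0.0039 and -0.0033). TM7SF2 was also above 0 with library totals (0.040), in the limma fits (0.044, 0.048 and 0.044) and without NC replicate 2, RBM47-OE replicate 2 or RBM47-OE replicate 3 (from -0.13 to 0.064 over all libraries left out), and MBTPS1 was below 0 without RBM47-OE replicate 3 (from -0.0023 to 0.060 over all libraries left out).

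The replicate numbers shared by both groups in the labels did not pair the libraries. Deviations from the group means correlated across genes at -0.060, -0.015 and -0.016 for numbers 1, 2 and 3, and no library correlated best with its own number. With the number as a block, 9 members were higher and 8 lower, against 11 and 9 without it. SQLE and FADS1 were no longer called higher and FDPS no longer lower. Of the further genes, 14 were higher and 6 lower with the block. Over all tested genes the block gave 2957 higher and 2510 lower, against 3100 and 2740 without it.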
